A study of Mus musculus with 6 samples.

Results

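Mitochondrial protein import genes and the voltage-dependent anion channel (VDAC) genes were examined in mouse heart after deletion of Nelfb. Every probe whose annotated symbol starts with Tomm, Timm or Vdac was taken, which gave 40 of the 25696 probes of the array and 26 genes. Of these, 31 probes of 20 genes were detected (detection p under 0.05 on 3 or more of the 6 arrays), and these 20 are among the 7579 genes tested. None of the 20 passed the test across all genes. The largest differences were those of Timm29 and Vdac1, with lower signal in knockout hearts, and of Timm8b and Timm10b, with higher signal. Their knockout over control ratios were 0.723, 0.773, 1.36 and 1.28 in that order.

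The knockout group was 3 female C57BL/6J mice carrying floxed Nelfb alleles together with CreER (Nelf-b f/f; CreER), a Cre recombinase that acts once tamoxifen is given. The control group was 3 female C57BL/6J mice with the floxed alleles and no CreER (Nelf-b f/f). Tamoxifen was given to all 6 mice at 8 weeks. Their hearts were taken at 20 weeks after a fast of 5 hours, on regular chow, so the comparison holds the effects of CreER and of the deleted gene together. The labels name neither the promoter that drives CreER nor the deleted exons. Heart tissue was used as a whole, in which fewer cells of a type and less RNA per cell cannot be told apart.

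Nearly all mitochondrial proteins are made in the cytosol and enter through the translocase of the outer membrane (TOM). From there the TIM23 complex takes proteins with a cleavable presequence into the matrix or inner membrane, while small Tim chaperones of the intermembrane space guide carrier proteins to the TIM22 complex. VDAC proteins are beta-barrel pores through which adenine nucleotides and other metabolites cross the outer membrane, and the heart, whose myocytes are packed with mitochondria, depends on both routes. NELF, the complex of which Nelfb encodes the B subunit, pauses RNA polymerase II soon after transcription begins.

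Signal was measured once per heart on Illumina bead arrays. The table that was not normalized and the normalized table name the groups in opposite ways, and in all 6 cases the array with the same rank order of probes carried the other group name. Groups follow the sample records. Were the non-normalized headers taken as written, each difference given here would have the opposite sign. The deleted gene, Nelfb, would then have the higher signal in knockout hearts. The mean signal per array before normalization lay between 207.98 and 259.9 in knockout hearts and between 169.8 and 310.3 in control hearts. Control array 1 stood apart on the second principal component, at -18.7, where the other arrays lay between -1.64 and 8.55.

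Nelfb had log2 signals of 5.41, 5.46 and 5.46 in knockout hearts, against 7.01, 7.08 and 7.07 in control hearts. The groups did not overlap, with a log2 difference of -1.61 ± 0.13 (SE) and an adjusted p of 0.000183 (limma, Benjamini-Hochberg over 7579 genes). The second Nelfb probe was also lower in every knockout heart, with a log2 difference of -0.94 ± 0.14 (SE).
Of the cell type marker lists, the 6 tested cardiomyocyte markers had 0 called, and 4 of the 6 differences were negative. Of all genes tested, 4.25% were called and 49.1% were negative. The 6 differences ran from -1.05 ± 0.32 (SE, adjusted p = 0.0948 by limma, unadjusted 0.00726) for the troponin gene Tnni3 to 0.37 ± 0.47 (SE) for the natriuretic peptide gene Nppa, with -0.05 ± 0.14 (SE) for the myosin gene Myh6. The summed signal of the 6 markers ran from 64335 to 77207 in knockout hearts and from 69550 to 70232 in control hearts. None of the fibroblast, endothelial, smooth muscle and pericyte, macrophage, red blood cell or adipocyte markers tested was called. Of 4 skeletal muscle markers only Myl1, a fast myosin light chain, was tested, and it fell (log2 difference -1.58 ± 0.18 SE, adjusted p = 0.000931 by limma). The summed signal of the 2 tested red blood cell markers, Hba-a1 and Alas2, ran from 5918 to 16538 in knockout hearts and from 1564 to 10093 in control hearts. The part of these markers in the results below was not tested.

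Among all genes tested, 4.25% were called at an adjusted p under 0.05, 2.01% lower and 2.24% higher in knockout hearts. Of the 20 import and VDAC genes 0 were called by limma in either direction, and the lowest adjusted p was 0.0997. At an unadjusted p under 0.05 there were 4 of 20, where 20.4% of all genes tested reached this level. The groups did not overlap for 5 of 20, 3 with all knockout hearts lower and 2 with all knockout hearts higher, where 24.9% of all genes tested had groups that did not overlap (11.4% with knockout lower and 13.5% with knockout higher). An absolute log2 difference of 0.5 or more was seen in 8.96% of all genes tested and in 0 of the 20. On the unadjusted p and on overlap the members' shares stand near those of all genes.
The median log2 difference (knockout minus control) of the 20 was -0.15, beside 0.01 over all genes tested. Of the 20, 12 were negative, beside 49.1% of all genes tested. The counts of calls depend on the settings. With no background correction 2 members were called lower, Timm29 and Vdac1, and 1 higher, Timm8b, where 7.42% of all genes were called. Timm29 and Timm8b were also called in the deposited value table, with a neqc offset of 50, and with a trended and robust variance prior, in which 7.64%, 7.36% and 8.51% of all genes were called. The 95% intervals of the 20 log2 differences were widest for Tomm7, at -0.65 to 0.33, and Timm10, at -0.76 to 0.21.

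**Figure D1:**
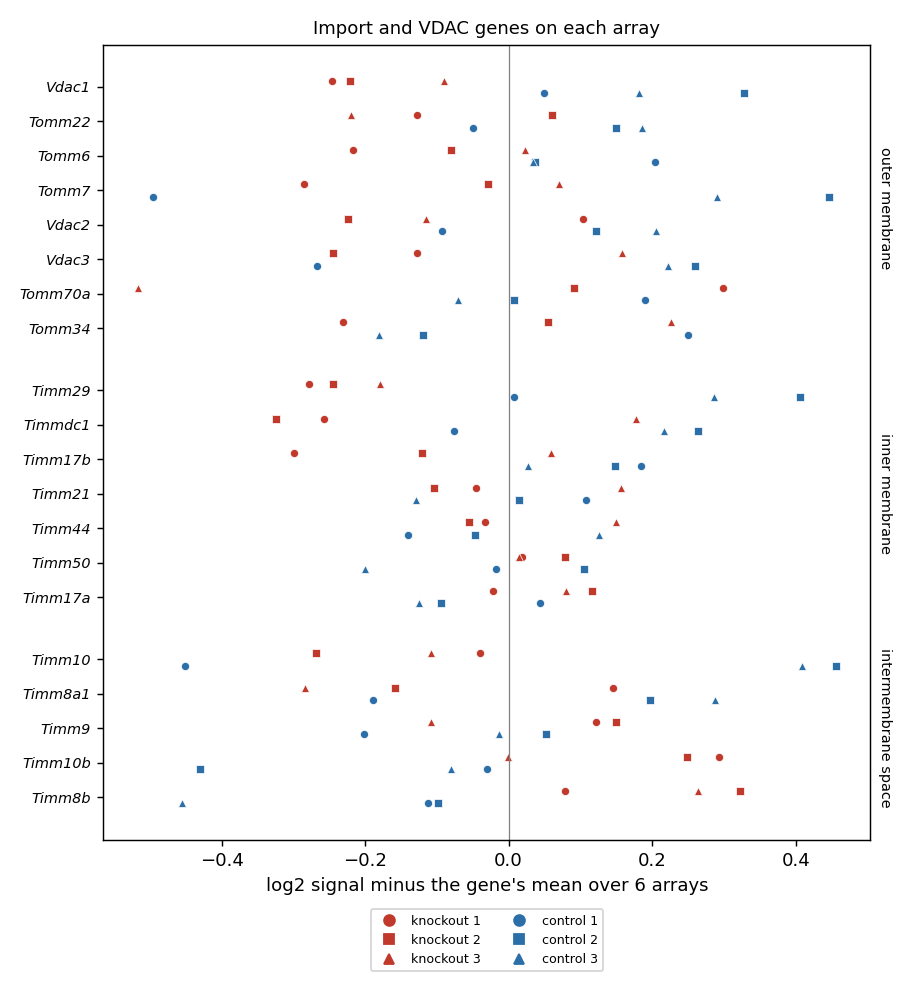
Log2 signal of the 20 tested import and VDAC genes on each array, as the distance from the gene's own mean over 6 arrays (horizontal axis), with the 3 knockout arrays in red above the 3 control arrays in blue. The 2 groups are apart for Vdac1, Tomm6, Timm29, Timm10b and Timm8b and overlap for the other 15 genes.

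**Figure D2:**
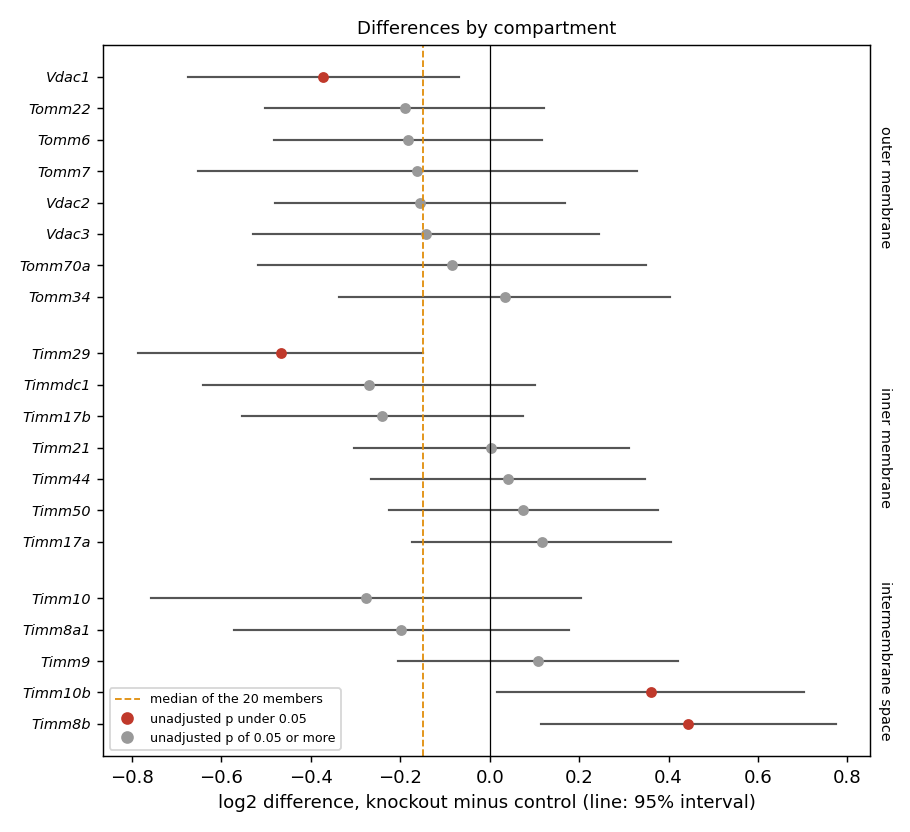
Log2 difference, knockout minus control, of each tested gene with its 95% interval, ordered by compartment. The 4 genes in red (Vdac1, Timm29, Timm10b and Timm8b) have intervals that do not reach 0 before adjustment, and the dashed line marks the median of the 20 at -0.15.

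The outer membrane group held 8 tested genes, of which 0 were called, beside 4.25% of all genes tested. Their median log2 difference was -0.16 and 7 of 8 were negative, beside 49.1% of all genes tested. The 8 include Tomm34, placed here by its name although its product is cytosolic, and it was the 1 gene with a positive difference. Vdac1, which encodes the most studied VDAC pore, a docking site for hexokinase, had log2 signals of 9.01, 9.04 and 9.17 in knockout hearts, against 9.31, 9.59 and 9.44 in control hearts. All knockout hearts lay below all control hearts. The means were 9.07 ± 0.08 in knockout hearts and 9.45 ± 0.14 in control hearts (SD, n = 3 each). Knockout minus control was -0.37 ± 0.14 (SE) on the log2 scale, with a limma adjusted p of 0.158 (unadjusted 0.0203). The 95% interval was -0.67 to -0.07.

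Vdac2, whose product also binds the apoptosis effector BAK, had log2 signals of 10.13, 9.80 and 9.91 in knockout hearts, against 9.93, 10.15 and 10.23 in control hearts. Vdac3, the third pore gene, had 9.05, 8.93 and 9.34 in knockout hearts, against 8.91, 9.44 and 9.40 in control hearts. Both groups overlapped for each gene, and control array 1 was the lowest control in both. The log2 differences were -0.16 ± 0.15 (SE) for Vdac2 and -0.14 ± 0.18 (SE) for Vdac3.
Whether Vdac1 differed from its paralogs was asked with the log2 ratio of the 2 genes within each array. The ratio of Vdac1 to Vdac2 was lower in knockout hearts by a log2 difference of -0.22 (95% interval -0.60 to 0.17, exact permutation p = 0.3). The ratio of Vdac1 to Vdac3 had a log2 difference of -0.23 (95% interval -0.59 to 0.14, exact permutation p = 0.2), and that of Vdac2 to Vdac3 had -0.01 (95% interval -0.49 to 0.47, exact permutation p = 1). A separate response of Vdac1 was not detectable with 3 hearts per group, and these intervals also do not show that the 3 genes act alike. In all, 8 such gene pairs were compared, chosen after values were seen, and the lowest p after Benjamini-Hochberg adjustment was 0.267. With 3 arrays a group, 0.1 is the smallest p that this permutation test allows.

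The 250 bases before the annotated start of Vdac1 are shown because Vdac1 had the largest difference of the outer membrane genes. They lie at chr11:52360601-52360850 on the plus strand (RefSeq, GRCm38.p6), and the gene body spans 52360851 to 52389397. Capitals mark CCGGAAG, the core of the site for ETS factors such as GABP, searched on both strands, which begins 105 bases before the start. It is a match of letters and not a measured site.
Vdac1: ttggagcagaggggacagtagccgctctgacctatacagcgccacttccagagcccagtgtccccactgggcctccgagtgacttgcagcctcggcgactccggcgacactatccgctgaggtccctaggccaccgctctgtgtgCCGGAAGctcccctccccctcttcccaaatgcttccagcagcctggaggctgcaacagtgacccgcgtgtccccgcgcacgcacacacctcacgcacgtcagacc

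The TOM genes had smaller differences. Tomm22, the central receptor that organises the complex, had a log2 difference of -0.19 ± 0.14 (SE, adjusted p = 0.494 by limma). Tomm6, a small subunit that stabilises the complex, had log2 signals of 5.97, 6.11 and 6.21 in knockout hearts, against 6.39, 6.23 and 6.22 in control hearts. Its groups did not overlap, but the gap between the highest knockout and the lowest control heart was small beside the spread, and the log2 difference was -0.18 ± 0.14 (SE, adjusted p = 0.496 by limma). Tomm7, another small subunit, had -0.16 ± 0.22 (SE), with 8.57, 8.82 and 8.92 in knockout hearts, against 8.36, 9.30 and 9.14 in control hearts. Tomm7 was thus lowest of all on control array 1 and highest on the other controls. The receptor gene Tomm70a, whose product takes up carrier precursors with cytosolic chaperones, had -0.08 ± 0.20 (SE), with 1 knockout heart, array 3, at 5.32 and the other 5 arrays between 5.76 and 6.13. Tomm34, the cytosolic co-chaperone, had 0.03 ± 0.17 (SE).

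The pore gene Tomm40 and the receptor gene Tomm20 were not tested. The single Tomm40 probe was not detected on any array, with log2 signals of 4.20 to 4.36, and the single Tomm20 probe was detected on 1 array. The lowest signal of a detected probe was between 4.54 and 4.68 on the 6 arrays. The Tomm40 and Timm23 products are needed by every cell with working mitochondria, so a probe below detection is not a measure of the transcript's absence.

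The inner membrane held 7 tested genes, of which 0 were called, beside 4.25% of all genes tested. Their median log2 difference was 0.00, with 3 negative and 4 positive. Timm29 (chr9:21592722-21595970, GRCm38.p6), a subunit of the TIM22 carrier translocase known from human cells, had the largest difference of all members. Its log2 signals were 7.83, 7.86 and 7.93 in knockout hearts, against 8.12, 8.52 and 8.40 in control hearts. The groups did not overlap, and the knockout hearts lay close together. The means were 7.88 ± 0.05 in knockout hearts and 8.34 ± 0.20 in control hearts (SD, n = 3 each). Knockout minus control was -0.47 ± 0.15 (SE) on the log2 scale, with a limma adjusted p of 0.0997 (unadjusted 0.00796) and a 95% interval of -0.79 to -0.15. Over 15 alternative settings the log2 difference of Timm29 stayed between -0.58 and -0.36 and the adjusted p between 0.0315 and 0.9999. Without control replicate 1 the adjusted p was 0.0461, where 5.09% of all genes were called. The Timm22 channel itself had 1 probe, which was not detected on any array.

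Genes of the TIM23 presequence route showed little difference. Timm17b, an X-linked channel subunit, had log2 signals of 4.82, 5.00 and 5.18 in knockout hearts, against 5.30, 5.27 and 5.14 in control hearts, which overlap and lie near the lowest detected signal. Its log2 difference was -0.24 ± 0.14 (SE, adjusted p = 0.375 by limma). Its paralog Timm17a, which other work places in an alternative form of the same channel, had 0.12 ± 0.13 (SE). The log2 ratio of Timm17b to Timm17a within an array was -6.49, -6.46 and -6.24 in knockout hearts, against -6.08, -5.98 and -6.07 in control hearts. That ratio was lower in all 3 knockout hearts, by a log2 difference of -0.36 (95% interval -0.59 to -0.12). The exact permutation p was 0.1, the smallest this design can give, and 0.267 after adjustment. Over 15 alternative settings the log2 difference of Timm17b ran from -0.34 to -0.076, and it was smallest with no background correction. The ratio was computed in the reported fit only.
Timm50, the receptor that takes presequences from TOM, had a log2 difference of 0.08 ± 0.14 (SE). Timm44, which ties the import motor to the channel, had 0.04 ± 0.14 (SE), and Timm21, which links TIM23 to the respiratory chain, had 0.00 ± 0.14 (SE). These 3 genes had overlapping groups, and the 95% interval of each was within -0.30 and 0.38. Neither of the 2 probes of the channel gene Timm23 was detected on any array. Timmdc1, an assembly factor of respiratory complex I that shares the Timm name by sequence kinship, had log2 signals of 6.08, 6.01 and 6.51 in knockout hearts, against 6.26, 6.60 and 6.55 in control hearts. The groups overlapped through knockout array 3 and control array 1, and the log2 difference was -0.27 ± 0.17 (SE, adjusted p = 0.404 by limma).

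The intermembrane space held 5 tested genes for small Tim chaperones, of which 0 were called, beside 4.25% of all genes tested. Their differences ran in both directions around a median of 0.11. That median depends on the arrays and probes used: leaving out control array 1 gave 0.034, knockout array 2 gave 0.061, knockout array 3 gave 0.19 and control array 2 gave 0.16. With the mean of all detected probes it was 0.24. It was 0.014 with no detection filter, a setting that adds undetected members and leaves the differences of these 5 genes unchanged. Timm8b (chr9:50603901-50605320, GRCm38.p6), whose product is a relative of the chaperone encoded by Timm8a1, had log2 signals of 11.20, 11.45 and 11.39 in knockout hearts, against 11.01, 11.03 and 10.67 in control hearts. All knockout hearts lay above all control hearts. The means were 11.35 ± 0.13 in knockout hearts and 10.90 ± 0.20 in control hearts (SD, n = 3 each). Knockout minus control was 0.44 ± 0.15 (SE) on the log2 scale. The limma adjusted p was 0.126 (unadjusted 0.0128), the 95% interval was 0.11 to 0.77, and over 15 alternative settings the adjusted p ran from 0.0173 to 0.9999.
The second Timm8b probe did not show this. It read 10.31, 10.66 and 10.53 in knockout hearts, against 10.12, 10.81 and 10.47 in control hearts, a log2 difference of 0.03 ± 0.18 (SE). With the mean of both probes in place of the brighter one the log2 difference of Timm8b was 0.24 (adjusted p = 0.405 by limma).

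Timm10b (chr7:105640445-105655748, GRCm38.p6), whose product sits with the TIM22 complex on the outer face of the inner membrane, had log2 signals of 8.67, 8.62 and 8.37 in knockout hearts, against 8.35, 7.95 and 8.29 in control hearts. The groups were apart by a narrow margin. The log2 difference was 0.36 ± 0.16 (SE), with a limma adjusted p of 0.224 (unadjusted 0.0411) and a 95% interval of 0.02 to 0.70. All 3 Timm10b probes were detected and all had a positive difference, 0.20 ± 0.15 (SE) and 0.33 ± 0.18 (SE) for the dimmer probes. For both dimmer probes the groups overlapped. With the mean of all 3 probes the log2 difference of Timm10b was 0.30 (adjusted p = 0.275 by limma).
Timm9 and Timm10 encode the chaperones that form a hexamer and escort carrier precursors. Timm9 had a log2 difference of 0.11 ± 0.14 (SE) and Timm10 had -0.28 ± 0.22 (SE). Timm10 read 8.15, 7.92 and 8.08 in knockout hearts, against 7.74, 8.65 and 8.60 in control hearts. Control array 1 was the lowest of all 6 arrays for Timm10, and the other controls were the highest. Timm8a1, which works with Timm13, had -0.20 ± 0.17 (SE), and the Timm13 probe was not detected on any array, nor were both probes of Timm8a2. The log2 ratio of Timm8b to Timm8a1 was higher in knockout hearts by 0.64 (95% interval -0.21 to 1.49, exact permutation p = 0.2, adjusted p = 0.32 by an exact test over 8 pairs), and the arrays of the groups overlapped.

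**Figure D3:**
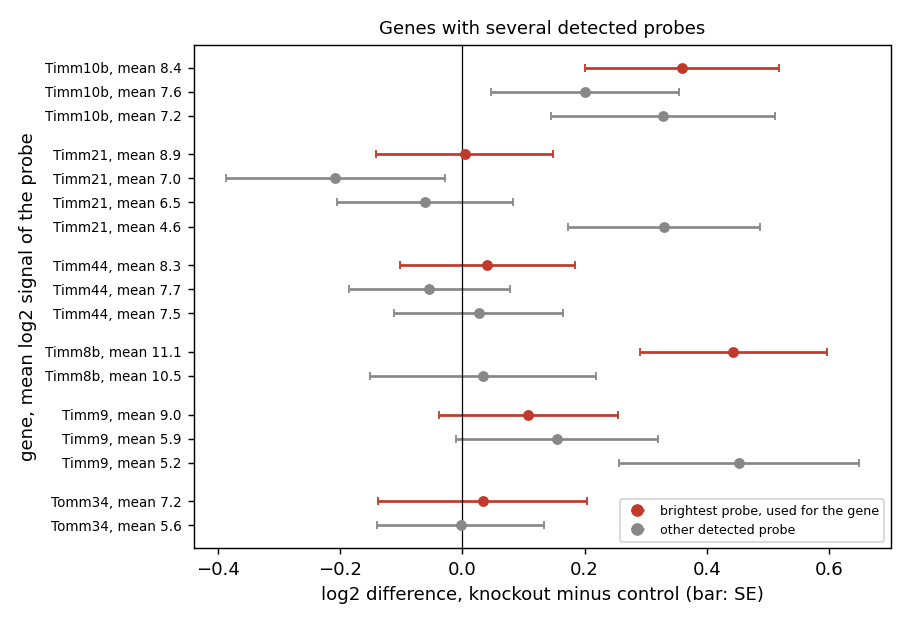
Log2 difference, knockout minus control, with its SE (bars) for every detected probe of the 6 genes with several, and the probe's mean log2 signal beside the symbol. The 3 Timm10b probes lie together above 0, the Timm8b probes differ (0.44 and 0.03), and the dimmest probes of Timm9 and Timm21 lie above their brighter ones.

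Of the other genes with several detected probes, Timm44 and Tomm34 had differences between -0.05 and 0.04 for all their probes. The Timm9 probes had 0.11, 0.15 and 0.45, and the Timm21 probes had 0.00, -0.21, -0.06 and 0.33. In both genes the probe with the largest difference was the dimmest, with mean log2 signals of 5.20 for Timm9 and 4.63 for Timm21, the last detected on 3 arrays. No member probe was called among the 10407 detected probes, of which 3.80% were called.

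**Figure D4:**
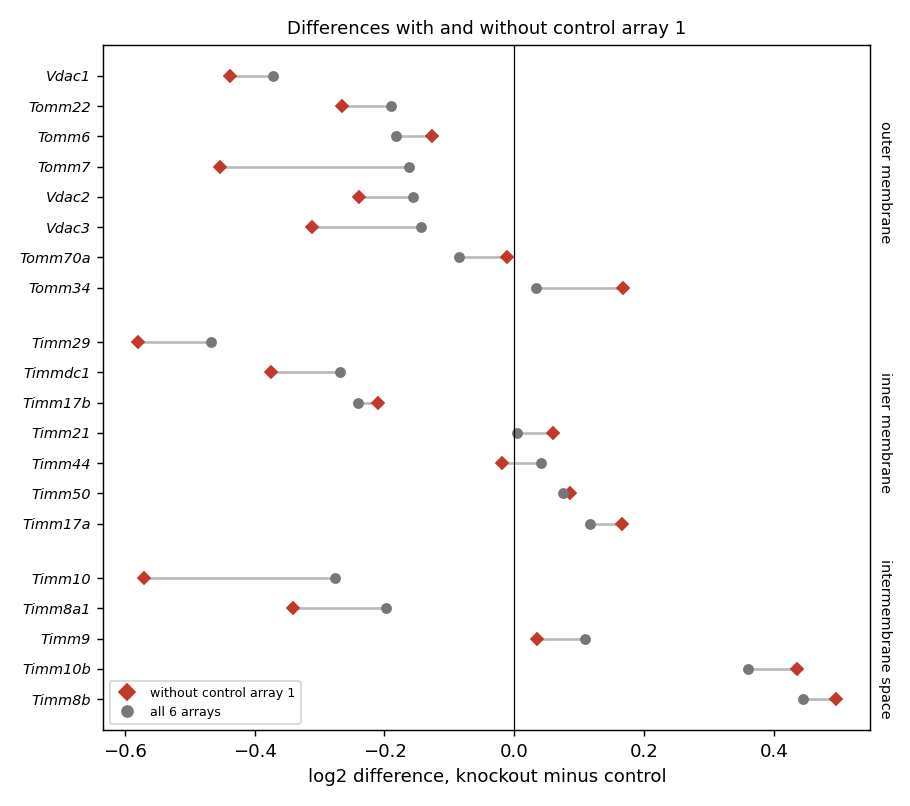
Log2 difference, knockout minus control, of each tested gene without control array 1 (red diamonds) and with all 6 arrays (grey circles). Timm10 moves from -0.28 to -0.57 and Tomm7 from -0.16 to -0.45 when the array is left out, and Timm44 crosses 0.

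Control array 1 weighed on several members. It read below both other controls for 11 of the 20 genes and above both for 7, where the shares over all genes tested were 33.4% and 42.8%. It was the lowest of all 6 arrays for 5 members, against 14.8% of all genes tested. Without it, 15 of the 20 differences were larger in size, a count for which the share over all genes was not computed. An unadjusted p under 0.05 was reached by 6 of 20 (24.3% of all genes did). Timm29 was the 1 member called, beside 5.09% of all genes tested. Its log2 difference was -0.58 ± 0.14 (SE, adjusted p = 0.0461 by limma). Timm10 then had -0.57 ± 0.14 (SE, adjusted p = 0.0529 by limma) and Tomm7 had -0.45 ± 0.16 (SE, adjusted p = 0.123 by limma). The median of the outer membrane genes was -0.25 without the array, beside -0.16 with it. What sets this array apart was not tested.

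Position showed a feature that the symbol rule did not use. Of the tested members with a RefSeq promoter entry, Timm8b, Timm10b and Timm29 share their start region with a tested gene on the other strand. Timm8b and Sdhd, which encodes a membrane anchor of succinate dehydrogenase, have annotated starts 52 bases apart. The 51 bases between them are shown because the 2 genes had opposite differences, at chr9:50603850-50603900 on the strand of Timm8b (GRCm38.p6), with the ETS core CCGGAAG in capitals, which begins 12 bases before the Timm8b start. Timm10b and Arfip2, whose product binds small GTPases, have starts 29 bases apart, and the 28 bases between them lie at chr7:105640417-105640444 on the strand of Timm10b and hold none of the motifs searched.
Timm8b: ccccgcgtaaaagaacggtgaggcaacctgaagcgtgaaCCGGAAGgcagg
Timm10b: gcagttgtgggcaggacgagcctggagc

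Sdhd had log2 signals of 7.38, 7.32 and 7.40 in knockout hearts, against 7.43, 7.93 and 8.23 in control hearts. It was lower in every knockout heart, by a log2 difference of -0.50 ± 0.19 (SE, adjusted p = 0.168 by limma), where Timm8b was higher by 0.44. The log2 ratio of Timm8b to Sdhd was 3.82, 4.12 and 3.99 in knockout hearts, against 3.59, 3.10 and 2.44 in control hearts. The ratio did not overlap between groups and was higher by 0.94 (95% interval -0.02 to 1.90), with an exact permutation p of 0.1 (adjusted 0.267). This ratio was computed with the brighter Timm8b probe only, and none was tested with the second probe. Sdhd on control array 1, at 7.43, lay close to the knockout hearts.
Arfip2 had a log2 difference of 0.05 ± 0.15 (SE), and the log2 ratio of Timm10b to Arfip2 was higher in knockout hearts by 0.31 (95% interval -0.01 to 0.63, exact permutation p = 0.1, adjusted 0.267). Yipf2, a Golgi protein gene whose start lies inside Timm29, had -0.27 ± 0.16 (SE), in the same direction as Timm29. Its log2 signals were 4.92, 4.40 and 4.47 in knockout hearts, against 4.94, 4.87 and 4.79 in control hearts. These lie near the lowest detected signal, which limits both the difference and the ratio. The log2 ratio of Timm29 to Yipf2 had a difference of -0.20 (95% interval -0.86 to 0.47, exact permutation p = 0.5).

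**Figure D5:**
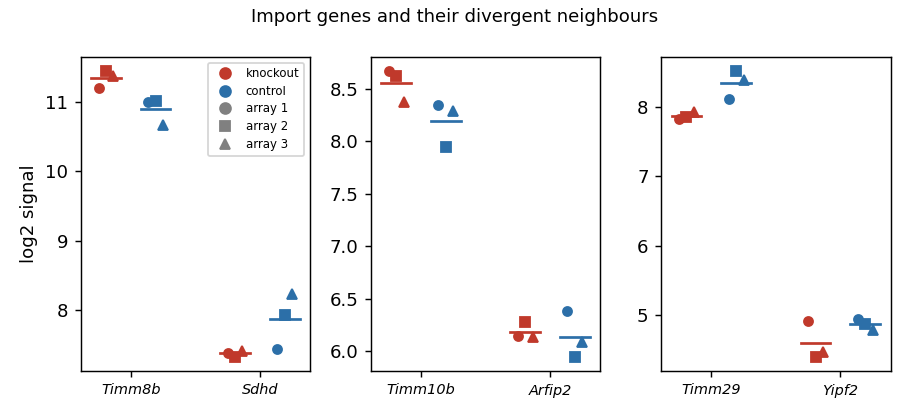
Log2 signal on each array (points) and group mean (lines) of Timm8b, Timm10b and Timm29 and the gene that starts beside each on the other strand, with knockout in red left of control in blue. Timm8b is higher and Sdhd lower in all 3 knockout hearts, while Arfip2 and Yipf2 overlap between groups.

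Import genes outside the name rule gave a like picture. Of 22 genes listed, 15 were tested, with a median log2 difference of -0.05. By limma 0 were called, beside 4.25% of all genes tested, and 3 had an unadjusted p under 0.05, beside 20.4%. The genes with the smallest p were Mipep, an octapeptide-trimming protease of the matrix (-0.43 ± 0.13 SE, adjusted p = 0.0933), Hspd1, the matrix chaperonin (-0.54 ± 0.16 SE, adjusted p = 0.0946), Mtx1, a metaxin of the outer membrane (0.39 ± 0.13 SE, adjusted p = 0.128), and Grpel2, a nucleotide exchange factor of the import motor (-0.30 ± 0.16 SE, adjusted p = 0.308). Grpel2 had a mean log2 signal of 4.56 in knockout hearts, near the lowest detected signal. The groups did not overlap for 5 of the 15, Mipep and Hspd1 with knockout lower and Mtx1, Dnajc19 and Gfer with knockout higher, beside 24.9% of all genes tested. Mipep, Hspd1 and Mtx1 were called in the 4 settings in which Timm29 and Timm8b were also called. These were no background correction, the deposited value table, the larger offset and the other prior. In that order, 7.42%, 7.64%, 7.36% and 8.51% of all genes tested were called.
Of 12 genes listed for proteins that bind VDAC or work beside it, 8 were tested, with a median log2 difference of -0.01. By limma 0 were called, beside 4.25% of all genes tested, and 0 had an unadjusted p under 0.05, beside 20.4%. The smallest p belonged to Bcl2l1, an inhibitor of apoptosis (0.33 ± 0.18 SE), Tspo, an outer membrane protein (-0.18 ± 0.14 SE), the hexokinase gene Hk2 (0.19 ± 0.15 SE) and Ppif, the matrix cyclophilin (0.11 ± 0.13 SE).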

How the data were processed

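Intensities of 25696 probes on 6 arrays (3 knockout, 3 control) were read from the 2 tables that the authors deposited. One of them, per the file headers, pairs each non-normalized intensity with a detection p-value. The other, the deposited value table, has normalized intensity values, and its normalization method is not stated. GenomeStudio is named in the submitters' processing notes. Arrays of the first table were tied to sample records by rank order over all probes (Spearman rho 1 for each matched pair, at most 0.855 otherwise), a choice made after the tables were seen.

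Values were background-corrected, quantile-normalized and log2-transformed by the neqc function (limma 3.58.1, R 4.3.3, offset 16). The platform annotation gave 1 symbol to 23977 probes. The other 1719 had no symbol or several, and were left out of the gene tests. Detected probes numbered 10407, and the brightest stood for its gene. Knockout was set against control with lmFit and eBayes (2-sided, 3 arrays per group, which limits the precision) and Benjamini-Hochberg adjustment over 7579 genes, with calls at 0.05 and moderated 95% intervals. P-values measure the spread between these 6 samples. The fit was also run on simulated arrays with added changes and independent normal noise. That run is not evidence about differences as small as those of the members. Ratios of 2 genes were tested by exact permutation over arrays. Their 95% intervals are not moderated and use only the spread of the 3 ratios in each group. Figures used Python 3.11.15 and matplotlib 3.10.9.

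The members, the partner and marker lists and the tests were chosen with earlier results of these data known. Every tested member is named. Array values are given for the 6 with the smallest p, the Vdac genes and, chosen after values were seen, those the text turns on. Partners named are the 4 with the smallest p of each list. Same-numbered arrays of the groups had correlations of -0.05, -0.00 and -0.06 between their deviations from group means, so the numbers were not taken as pairs. Alternatives covered background correction, the deposited value table, scaling, offset, detection filter, variance prior, probe rule, a replicate block and leaving out each array.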

Additional observations from a re-analysis of the deposited data

How the results depend on the processing

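Calls over all genes moved most. The count was 322 in the reported fit, 562 with no background correction, 579 in the deposited value table, 54 with median scaling, 558 with the offset raised to 50, 142 without the detection filter, 645 with a trended and robust prior, 171 with the replicate block, and 97 to 386 without 1 array. Members called lower numbered 0 in the reported fit, 2 with no background correction, and 1 in the deposited value table, with an offset of 50 or with the trended prior, and 0 to 1 without 1 array. Members called higher numbered 1 in the same 4 settings. Member probes called numbered 3 with no background correction and 2 in the other 3 of these. Import partners called numbered 3 in all 4 settings and 0 to 1 without 1 array. Of all genes tested, 7.36% to 8.51% were called in these 4 settings. The share of all probes called was not computed there. The replicate block called 0 members. The median log2 difference of the members was -0.15, with -0.083 with no background correction, -0.064 with no detection filter, and -0.17 to -0.072 without 1 array. The outer membrane median ran from -0.25 to -0.12 and the inner membrane median from -0.073 to 0.054 without 1 array, and that of the intermembrane space from 0.034 to 0.19. With no detection filter the inner membrane median, 0.0040 in the reported fit, was -0.0068, and the intermembrane space median was 0.014. With the mean of all detected probes the intermembrane space median was 0.24. Of single members, signs turned only when 1 array was left out: the range was -0.25 to 0.15 for Tomm70a, -0.023 to 0.11 for Timm44, -0.070 to 0.17 for Tomm34, -0.073 to 0.059 for Timm21, -0.45 to 0.020 for Tomm7 and -0.0070 to 0.14 for Timm50. Of 300 member values under the alternatives, 280 kept direction and side of the threshold. The cause of these moves was not tested. Probes near the lowest detected signal, as for Timm17b, limit what can be seen.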

Other observations

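The upstream sequences of the members hold one short motif more often than those of other genes. Of the 20 tested members 16 have a RefSeq promoter entry, and CCGGAAG, the ETS core, occurs on either strand within 250 bases before the start of 8 of these, against 14.3% of 6175 tested genes and 7.05% of all 27025 genes with an entry. The 8 are Timm10, Tomm34, Timm29, Timm8b, Vdac1, Tomm22, Timmdc1 and Tomm70a, whose differences ran in both directions. The SP1 core GGGCGG occurs in 8 of 16 members and in 60.0% of tested genes. The NRF1 core, the YY1 core AAGATGGC and the TATA letters TATAAA occur in 0 of 16, against 8.70%, 2.06% and 6.90% of tested genes, and TNAAGGTCA, the core for estrogen-related receptors, occurs only in Timm8b, against 0.826%. These are matches of letters in 1 window per gene, with no measure of binding and no test.

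The names of some small Tim genes overlap. RefSeq lists Timm10 as another name of Timm9, and Timm9 as another name of Timm13.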
